A study of Mus musculus with 4 samples.

Results

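The liver takes bile acids, hormones and drugs from blood and passes many of them into bile, and 32 mouse genes for the transporters that do this are described here. They were listed by gene name from 50584 gene symbols, with earlier results of these data known, and all 32 were present in the count files. The list held 17 uptake genes of the Slc and Slco families, 12 efflux genes of the Abc family, and 3 further genes that serve exit from the hepatocyte or its bile-facing membrane. These classes were assigned by gene name, and transport was not measured. The uptake class includes Slc22a23, an orphan member of its family. Liver mRNA was sequenced from DBA/2J and C57BL/6J mice, both inbred strains, with 2 libraries per strain. All animals were male, 14 weeks old, labelled as wild type and fed chow, and no treatment was given. Per the design text each strain was represented by 2 animals, so each library was taken as 1 animal, and the labels give no batch. Strain and any unrecorded difference in handling therefore cannot be told apart.

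A hepatocyte has a basolateral face towards the blood and a canalicular face towards the bile. On the basolateral face, the sodium-dependent bile acid carrier, the organic anion transporting polypeptides (Slco genes) and the organic anion and cation carriers (Slc22 genes) bring solutes in. On the canalicular face, ATP-driven pumps of the Abc family move bile acids, phospholipid, sterols and conjugates out, while other Abc pumps return solutes to the blood.

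Libraries held 48096706 to 52520737 counts, of which the 32 genes took 0.563% to 0.713%. Hepatocyte markers, summed over the 6 of 7 listed genes found in the files, stood at 79882 to 91540 CPM (counts scaled to a common library size, with totals adjusted by the trimmed mean of M values). Of 7 listed kidney tubule markers, Slc34a1, Slc5a2, Umod, Kap and Slc22a6 had at most 3 counts in any library. The others, Lrp2 and Cubn, were detected. All 7 summed to 0.726 and 0.958 CPM in DBA/2J against 0.718 and 2.44 CPM in C57BL/6J. Summed cholangiocyte markers were 56.7 and 56.8 CPM in DBA/2J against 119.8 and 81.2 CPM in C57BL/6J, of which Spp1 made up 13.6 and 14.4 against 61.8 and 40.4 CPM. Of 8 markers each, 1 cholangiocyte (Spp1, lower), 1 Kupffer cell (lower), 1 stellate cell (higher), 2 pericentral (both lower) and 0 periportal hepatocyte genes were called by edgeR. An unadjusted p below 0.05 was found for 1, 1, 4, 3 and 3 of them in that order, and DESeq2 called 1, 1, 2, 3 and 1. Of all 15647 tested genes, edgeR called 18.2% and DESeq2 3148 genes, and 5540 genes had an unadjusted p below 0.05. Summed Kupffer cell markers ranged from 150.5 to 199.7 CPM with overlapping strains, and summed stellate cell markers were 207 and 256 CPM in DBA/2J against 166 and 118 CPM in C57BL/6J. All 8 stellate cell markers had a positive log2 difference, with a median of 0.60. Pericentral sums did not overlap, at 8471 and 7370 CPM in DBA/2J against 8762 and 8670 CPM in C57BL/6J, and periportal sums did, at 9207 and 8705 against 7238 and 9011 CPM. The part of these markers in the transporter differences was not tested. C57BL/6J replicate 1 stood apart in acute phase and neutrophil mRNA. Its Saa1 count was 95929, against 6897 in replicate 2 and 4792 and 1988 in DBA/2J, and its summed neutrophil markers were 12.0 CPM, against 1.90, 1.74 and 2.39. In that library 22 of the 31 tested transporter genes were lower than in C57BL/6J replicate 2 (71.0%), against 51.4% of all tested genes. The part of this library's state in the strain differences was not tested, and values without it are given for the genes whose call it changed.

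Levels of the 32 genes spanned several orders of magnitude. Compared per kilobase of annotated exon, Slc10a1, the sodium-dependent bile acid uptake carrier, and Slco1b2, an organic anion carrier for bile acids, bilirubin conjugates and drugs, led the list. Slc10a1 stood at 271 CPM per kilobase in DBA/2J and 264 in C57BL/6J, and Slco1b2 at 271 and 212. By the mean over the libraries, next came the canalicular bile salt export pump Abcb11 (157 and 147), Slco1a1 (139 and 104) and Slc22a30 (131 and 71.6). In C57BL/6J alone Abcc2 (86.0) and Slc22a18 (80.4) stood above Slc22a30. At the other end, Slco3a1, Slc22a3, Slc28a1, Abcb1a, Abcb1b, Abcc1 and Abcc4 were each at most 1.21 CPM per kilobase in both strains. Slc51a, a subunit of the basolateral organic solute transporter, had 1 count in DBA/2J replicate 1 and 0 in the other libraries, and was the sole member too low to test. Where a gene's libraries stood at 0 counts, a floor of 3 counts corresponds to 0.0542 to 0.0622 CPM. The length used sums every exon annotated to a gene name and so may be longer than its transcripts; genes such as Slco2a1 and Slc22a15, with 13545 and 14239 bases, may therefore rank too low. Exons of 8 members overlap those of another gene, where reads may have gone uncounted. The longest such overlaps, with antisense genes, were those of Slco2b1 and Slc29a1, at 3782 and 2214 bases.

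**Figure D1:**
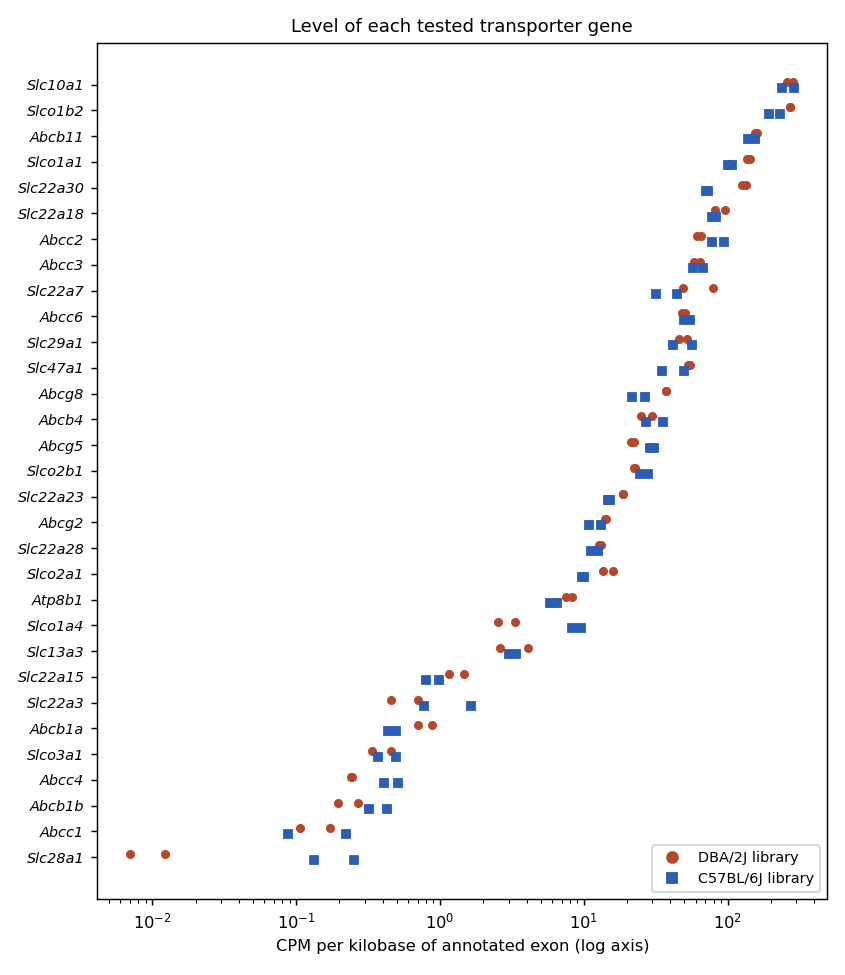
Level of each of the 31 tested transporter genes, in CPM per kilobase of annotated exon on a log axis, with 1 point per library (red circles, DBA/2J; blue squares, C57BL/6J). Slc10a1, Slco1b2 and Abcb11 lead, and Slc28a1 is lowest, with its DBA/2J libraries set apart below those of C57BL/6J.

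Between the strains, 8 of the 31 tested transporter genes differed, 5 higher and 3 lower in DBA/2J (edgeR quasi-likelihood test, Benjamini-Hochberg adjusted over 15647 genes, called at an adjusted p below 0.05). That is 25.8% of the tested members, where 18.2% of all tested genes were called, 9.29% higher and 8.87% lower. Of these members, Slc28a1 passed the filter on low counts only through the strain in which it was high, and without it 7 of 30 were called (23.3%). Higher were Slc22a30, Slco2a1, Slco1a1 and Slc22a23 on the uptake side and the sterol pump gene Abcg8 on the efflux side. Lower were Slco1a4 and Slc28a1 on the uptake side and Abcg5, the partner of Abcg8. A called difference of at least 2-fold was found for Slco1a4 and Slc28a1, 2 of 31, where 7.74% of all tested genes passed both limits. Without Slc28a1, Slco1a4 was the sole such gene among 30. For 21 of the 31 genes (67.7%) all libraries of 1 strain lay above those of the other, as they did for 63.8% of all tested genes. In bulk tissue, fewer cells of a type and less RNA per cell cannot be told apart.

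**Figure D2:**
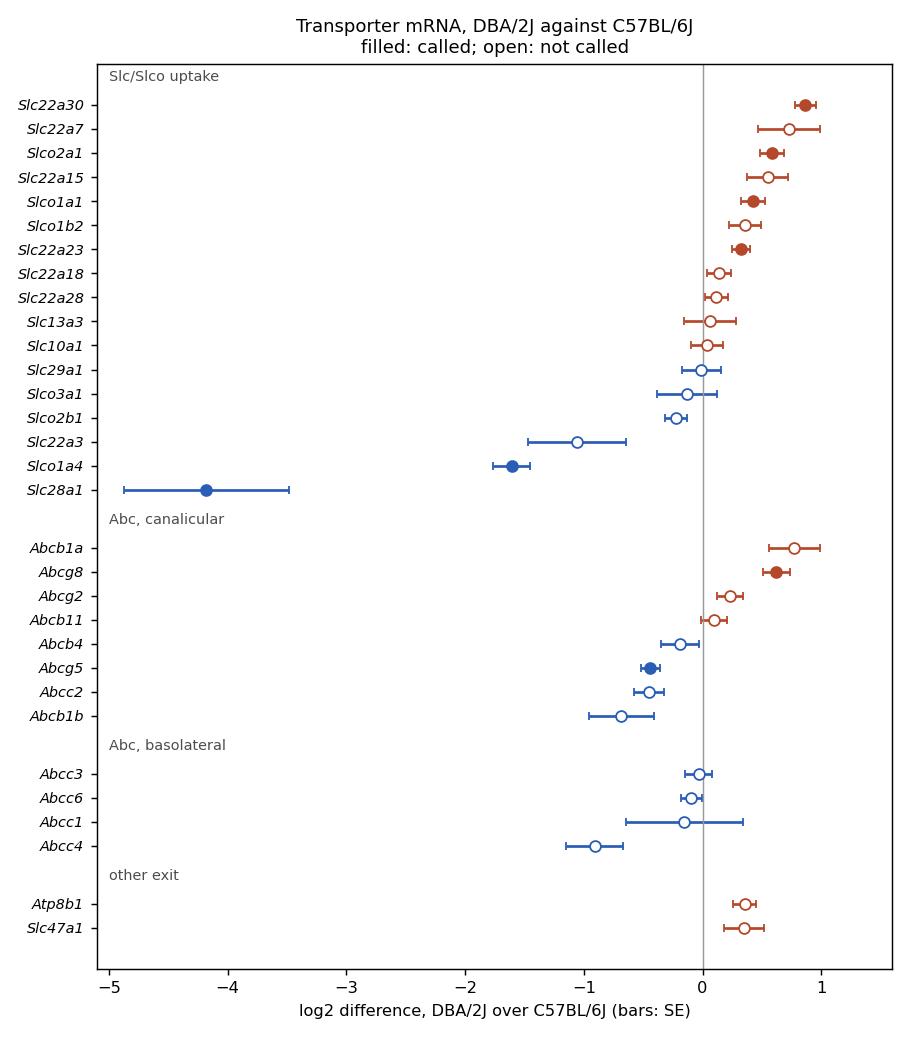
Log2 difference of DBA/2J over C57BL/6J for the 31 tested transporter genes, grouped by role, with standard errors from 2 libraries per strain. Filled points are the 8 genes called by edgeR; most uptake genes lie right of 0, and Slco1a4 and Slc28a1 lie farthest left among the called genes.

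The calls depended on which library was left out. Slco1a4 was the sole member called in each of the 4 fits that left out 1 library. The other 7 calls were lost without DBA/2J replicate 1 and also without DBA/2J replicate 2, fits in which 1.79% and 1.92% of all genes were called. The Slco1a1 call was lost in addition without C57BL/6J replicate 2, which called 29.9% of all genes. That fit gained calls for Slco1b2, Slc22a7, Slc22a15, Abcb1a, Abcg2, Abcc4 and Slc47a1. Without C57BL/6J replicate 1, the library with high Saa1, all 8 calls stood and Slco2b1, Slc22a3, Abcb1b, Abcc2 and Atp8b1 were called as well, in a fit that called 24.2% of all genes. In these fits the direction of all 8 called genes stayed as it was.

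A group of 3 Slco genes lie in 1 cluster on chromosome 6 (GRCm38): Slco1b2 at 141629518 to 141686646 on the forward strand, and Slco1a4 at 141805440 to 141856199 and Slco1a1 at 141907282 to 141946962 on the reverse strand. Slco1a4 encodes an organic anion carrier that also takes up cardiac glycosides and is known to be inducible through the pregnane X receptor. Its counts were 784 and 1175 in DBA/2J (replicates 1 and 2, the order used throughout) against 3006 and 2629 in C57BL/6J, or 16.3 and 21.2 CPM against 61.7 and 52.7 CPM. Both DBA/2J libraries lay far below both C57BL/6J libraries. The mean was 18.7 ± 3.53 CPM in DBA/2J and 57.2 ± 6.37 CPM in C57BL/6J (SD, n = 2 each), a level 3.05-fold lower in DBA/2J. On the log2 scale the difference was -1.61 ± 0.16 (SE; edgeR adjusted p = 0.00323), and the adjusted p reached at most 0.0433 with any library left out.

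Slco1a1, which encodes an organic anion carrier known to be more abundant in male than in female mouse liver, differed the other way. It stood at 750.0 and 721 CPM in DBA/2J and at 565 and 530.4 CPM in C57BL/6J. All DBA/2J values were above all C57BL/6J values. The log2 difference was 0.42 ± 0.10 (edgeR adjusted p = 0.0387), and it stayed between 0.38 and 0.47 with any library left out, while the adjusted p rose to as much as 0.289. Per kilobase, Slco1a1 exceeded Slco1a4 56.1 and 41.3 times in the DBA/2J libraries and 11.1 and 12.2 times in the C57BL/6J libraries. That these ratios did not overlap follows from the opposite, non-overlapping differences of the 2 genes and adds no support. With 2 libraries against 2, the exact two-sided permutation test gave 0.333, the smallest p it allows, so it could not decide.

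Slco1b2, the most abundant member in counts, had 1345 and 1328 CPM in DBA/2J and 952 and 1138 CPM in C57BL/6J. The DBA/2J libraries were higher, but the difference of 0.36 ± 0.14 on the log2 scale was not called (edgeR adjusted p = 0.126; 0.0497 in DESeq2), and much of the spread lay within C57BL/6J. The best match of the Slco1a1 and the Slco1a4 transcript among other genes was Slco1a5, at 87.6% and 88.9% identity. Of their stretches of 100 bases, the length of 1 read, 0.841% and 1.07% occurred unchanged in Slco1a5, and Slco1a5 and Slco1a6 themselves had at most 3 counts in any library.

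The sequences upstream of the Slco1a pair are shown because these cluster neighbours differed between the strains in opposite directions. Each is the stretch of 250 bases before the RefSeq start (GRCm38.p6, that is, the C57BL/6J sequence), read on the gene's own strand. It lies at chr6:141946963-141947212 for Slco1a1 and chr6:141856221-141856470 for Slco1a4. Capitals mark matches on either strand to any of 4 words. The first, TATAAA, is the core promoter element near many starts. The second, GTTAAT, is a half-site of hepatocyte nuclear factor 1, and the third, AGGTCA, is a half-site of nuclear receptors. The fourth, TTCNNNGAA, is the site of STAT factors.
Slco1a1: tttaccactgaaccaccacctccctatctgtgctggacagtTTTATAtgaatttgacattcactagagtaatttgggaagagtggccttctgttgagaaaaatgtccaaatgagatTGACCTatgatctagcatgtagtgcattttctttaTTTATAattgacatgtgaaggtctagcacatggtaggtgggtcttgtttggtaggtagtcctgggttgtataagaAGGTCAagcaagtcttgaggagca
Slco1a4: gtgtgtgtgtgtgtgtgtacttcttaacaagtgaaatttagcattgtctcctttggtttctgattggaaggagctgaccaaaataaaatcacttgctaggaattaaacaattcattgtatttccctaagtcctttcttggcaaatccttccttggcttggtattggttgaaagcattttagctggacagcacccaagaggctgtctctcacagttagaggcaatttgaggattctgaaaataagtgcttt
The Slco1a1 window held 4 matches, a pair each of TATAAA and AGGTCA, none overlapping another. Both TATAAA matches read on the strand opposite to the gene. They began at bases 42 and 152 of the 250, counted from the upstream end, and so not close to the gene start. The Slco1a4 window held none of the 4 words. Among 32851 windows of 250 bases before mouse gene starts, TATAAA occurred in 12.4%, AGGTCA in 14.0%, TTCNNNGAA in 7.02% and GTTAAT in 6.43%. Promoter sequences were matched for 25 of the 32 genes.

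The remaining Slco genes are a mixed set. Slco2a1, the prostaglandin transporter gene, stood at 216 and 184 CPM in DBA/2J and 131 and 135 CPM in C57BL/6J. Its lowest DBA/2J value was above both C57BL/6J values, and the log2 difference was 0.59 ± 0.10 (edgeR adjusted p = 0.017). This gene is known from endothelial cells; of 8 endothelial markers Stab2 was called higher (0.40) and Lyve1 lower (-1.16), and their summed level was 169 and 198 CPM in DBA/2J against 182 and 149.7 CPM in C57BL/6J. The part of cell makeup in the Slco2a1 difference was not tested. Slco2b1, a further organic anion carrier gene, had 135 and 133 CPM in DBA/2J against 146 and 167 CPM (-0.22 ± 0.09, edgeR adjusted p = 0.153; -0.32 and 0.0324 without C57BL/6J replicate 1). Slco3a1 had 137 and 213 counts in DBA/2J and 204 and 157 in C57BL/6J, and the strains overlapped.

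**Figure D3:**
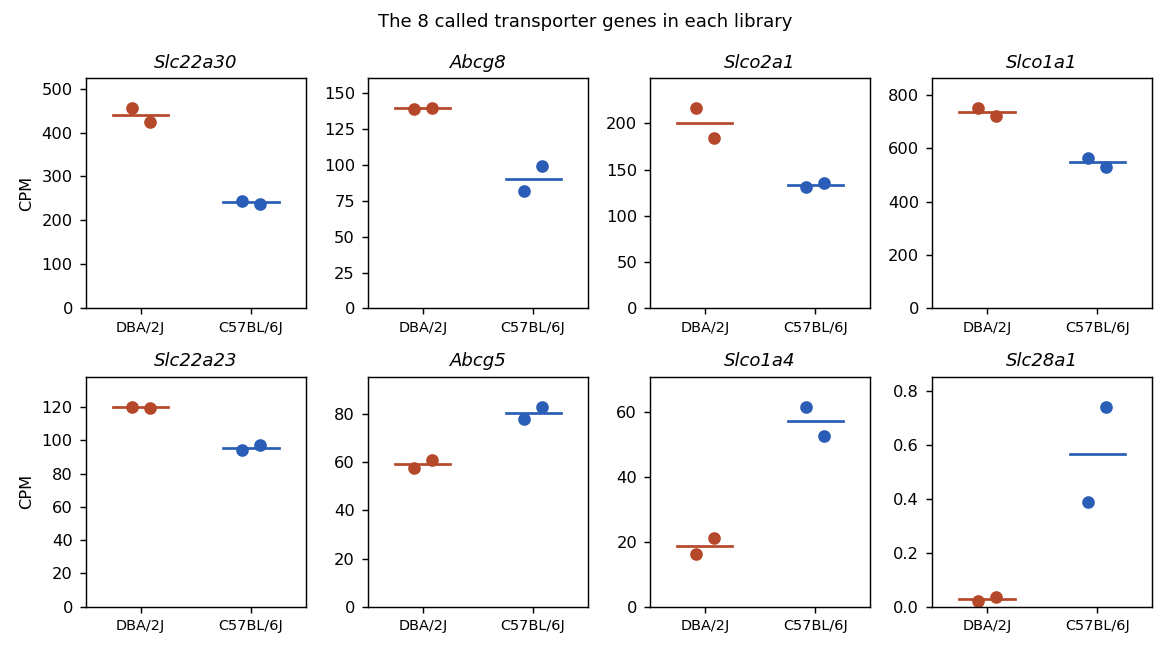
CPM of the 8 called transporter genes in each library, with each axis starting at 0 (points, libraries; lines, strain means; red, DBA/2J; blue, C57BL/6J). In every panel the strains do not overlap, and Abcg8 and Abcg5 lie on opposite sides.

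Slc10a1, the bile acid uptake carrier, did not differ detectably. Its values were 567 and 625 CPM in DBA/2J and 522 and 639 CPM in C57BL/6J, and the strains overlapped. The log2 difference was 0.04 with a 95% interval from -0.29 to 0.37, which leaves room for a change of up to 1.29-fold upwards.

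Of the Slc22 genes, Slc22a30 showed the clearest difference. It belongs to the organic anion carriers of this family and lies on chromosome 19 at 8335371 to 8405111 (reverse strand). Its counts were 21937 and 23482 in DBA/2J and 11921 and 11868 in C57BL/6J, or 455 and 424 CPM against 245 and 238 CPM. The libraries of each strain lay close together and the strains far apart. Mean levels were 439.6 ± 21.4 and 241 ± 4.81 CPM (SD, n = 2 each), 1.82-fold higher in DBA/2J, or 0.87 ± 0.09 on the log2 scale (edgeR adjusted p = 0.00372). The adjusted p rose to at most 0.0758 with a library left out.

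Slc22a28, its neighbour at 8062209 to 8131982 on the same strand, stood at 26.2 and 25.7 CPM in DBA/2J and 25.3 and 22.7 CPM in C57BL/6J, a log2 difference of 0.12 with a 95% interval from -0.13 to 0.36. Both genes are close copies. Their transcripts aligned at 98.9% identity over 1485 bases, and 24.1% of the stretches of 100 bases in Slc22a30 and 36.9% of those in Slc22a28 occurred unchanged in the other gene. Reads from such stretches match both places and may have gone uncounted, and DBA/2J reads were placed on a C57BL/6J-derived reference. A change in mRNA level and a change in where reads were placed therefore cannot be told apart for this pair. The same reference served all genes. Its part in the other strain differences, among them those of Slco1a4, Abcg5, Slc28a1, Abcb1a and Abcb1b, was not tested.

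The stretches upstream of the 2 copies are shown to let their likeness be seen. They are the bases before the RefSeq starts that lie outside annotated exons (GRCm38.p6, reverse strand), at chr19:8405112-8405355 for Slc22a30 and chr19:8131983-8132232 for Slc22a28. Capitals mark bases that differ from, or have no partner in, the other sequence.
Slc22a30: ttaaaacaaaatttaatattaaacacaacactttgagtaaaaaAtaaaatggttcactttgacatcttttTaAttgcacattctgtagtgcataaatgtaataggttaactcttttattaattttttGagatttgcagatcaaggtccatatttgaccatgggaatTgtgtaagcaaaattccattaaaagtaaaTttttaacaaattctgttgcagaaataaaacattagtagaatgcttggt
Slc22a28: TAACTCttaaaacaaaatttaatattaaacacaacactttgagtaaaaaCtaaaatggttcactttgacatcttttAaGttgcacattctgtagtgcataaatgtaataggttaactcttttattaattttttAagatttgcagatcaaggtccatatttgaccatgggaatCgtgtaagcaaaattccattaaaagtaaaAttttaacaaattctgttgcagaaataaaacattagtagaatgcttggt
Of 244 aligned bases, 238 were identical (97.5%), and 6 bases at the upstream end of the Slc22a28 window had no partner. Per kilobase of exon, Slc22a30 exceeded Slc22a28 by 10.3 and 9.82 times in DBA/2J and by 5.76 and 6.24 times in C57BL/6J. These ratios did not overlap (exact permutation p = 0.333, the smallest possible). That follows from the Slc22a30 difference given above and adds no support. None of the 4 words searched above occurred in either window.

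The other Slc22 genes moved less or varied more. Slc22a23, an orphan member of the family, stood at 120.1 and 119.5 CPM in DBA/2J and 94.2 and 96.9 CPM in C57BL/6J, a difference of 0.33 ± 0.07 on the log2 scale (edgeR adjusted p = 0.0355). It was not called when no filter on low counts was applied (0.0832). Slc22a7, which encodes organic anion transporter 2, had 158 and 97.5 CPM in DBA/2J and 63.9 and 89.8 CPM in C57BL/6J. Its strains did not overlap, yet the DBA/2J animals differed 1.62-fold from each other, and 0.73 ± 0.26 on the log2 scale was not called (edgeR adjusted p = 0.11; 0.0193 in DESeq2). Slc22a15 (0.55 ± 0.17) and the imprinted gene Slc22a18 (0.14 ± 0.10) were not called either, with edgeR adjusted p values of 0.0803 and 0.382. Slc22a3, the organic cation transporter 3 gene, had 119 and 89 counts in DBA/2J and 133 and 285 in C57BL/6J. Its log2 difference of -1.06 ± 0.41 was not called (edgeR adjusted p = 0.133) and rested largely on C57BL/6J replicate 2. It was -0.43 without that library, and -1.50 and called without C57BL/6J replicate 1 (edgeR adjusted p = 0.00507).

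Nucleoside and dicarboxylate carriers gave 1 call. Slc28a1 encodes the concentrative carrier of pyrimidine nucleosides, at chromosome 7 from 81114799 to 81170416. It had 1 and 2 counts in DBA/2J and 19 and 37 in C57BL/6J, so the DBA/2J libraries stood at or under the floor. The gene entered the test through its C57BL/6J libraries alone, and it was not tested when at least 30 counts in 2 libraries were required. The pooled level was 19.6 times higher in C57BL/6J, with a 95% counting interval from 6.37 to 97.9 that covers counting error only (edgeR adjusted p = 0.0125). Slc29a1, the equilibrative nucleoside carrier, was far more abundant and overlapped between strains, at 184 and 208 CPM in DBA/2J and 167 and 228 CPM in C57BL/6J (log2 difference -0.01, 95% interval -0.41 to 0.39). Slc13a3, a sodium-coupled dicarboxylate carrier, overlapped as well (0.06 ± 0.22).

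On the efflux side, the clearest result lay in the sterol pump. Abcg5 and Abcg8 encode the partners of a heterodimer that secretes cholesterol and plant sterols into bile, and both are known targets of the liver X receptor. They lie head to head on chromosome 17, Abcg5 at 84658234 to 84683011 on the reverse strand and Abcg8 at 84676302 to 84700333 on the forward strand. Abcg8 had 6723 and 7713 counts in DBA/2J and 3981 and 4965 in C57BL/6J, which is 139 CPM in both DBA/2J libraries against 81.7 and 99.5 CPM. Abcg5 had 2784 and 3358 counts in DBA/2J and 3796 and 4136 in C57BL/6J, or 57.7 and 60.7 CPM against 77.9 and 82.9 CPM. Neither gene overlapped between strains, and the directions were opposite.

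In log2 units Abcg8 differed by 0.62 ± 0.11 (edgeR adjusted p = 0.0186) and Abcg5 by -0.44 ± 0.08 (edgeR adjusted p = 0.0201). Both calls were absent without either DBA/2J library, with adjusted p values of up to 0.17 and 0.205, and when no filter on low counts was applied. Per kilobase, the ratio of Abcg8 to Abcg5 was 1.75 and 1.66 in DBA/2J and 0.759 and 0.868 in C57BL/6J. The partner with the higher level differed between strains in these libraries, although annotated exon lengths set where equality lies (exact permutation p = 0.333, the smallest possible). That the ratios do not overlap follows from the opposite, non-overlapping differences of the partners and adds no support. Annotated exons of both genes overlap over 162 bases, where reads of the partners could not be separated without strand.

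The stretch between 1 RefSeq start of each gene is shown because both genes read outward from it. Annotated Abcg8 exons begin at 84676302, within Abcg5, so further Abcg8 starts may lie outside this stretch. It covers 109 bases at chr17:84683012-84683120 (GRCm38.p6, forward strand); Abcg8 begins after its right end and Abcg5, read on the reverse strand, before its left end. Capitals mark the 1 match to the 4 words above, TATAAA on the reverse strand.
Abcg5 and Abcg8: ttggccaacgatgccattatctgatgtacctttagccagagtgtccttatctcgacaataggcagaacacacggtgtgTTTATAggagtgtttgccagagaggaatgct
No further match to these words occurred in this window.

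The main bile pumps of the canalicular membrane were not called. Abcb11, the bile salt export pump gene, stood at 828 and 792 CPM in DBA/2J and 714 and 801 CPM in C57BL/6J, with overlapping strains and a log2 difference of 0.10 (95% interval -0.18 to 0.37). Abcb4, whose product delivers phosphatidylcholine to bile, stood at 281 and 235 CPM in DBA/2J and 253 and 336 CPM in C57BL/6J (-0.19 ± 0.16). Atp8b1, a canalicular phospholipid flippase gene, was 53.0 and 48.5 CPM in DBA/2J and 41.7 and 37.7 CPM in C57BL/6J. Its strains did not overlap, but 0.35 ± 0.10 on the log2 scale was not called (edgeR adjusted p = 0.0572; 0.0174 without C57BL/6J replicate 1).

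Abcc2, which encodes the canalicular pump of bilirubin glucuronides and other conjugates, was 555 and 519 CPM in DBA/2J and 666 and 802 CPM in C57BL/6J. Both DBA/2J values were lower, and -0.45 ± 0.13 on the log2 scale was not called (edgeR adjusted p = 0.061). Leaving out C57BL/6J replicate 1 gave a call (edgeR adjusted p = 0.009), and so did DESeq2 (adjusted p = 0.00866). Abcg2, the breast cancer resistance protein gene, was 116 and 115 CPM against 88.9 and 107 CPM (0.23 ± 0.11, edgeR adjusted p = 0.192). Slc47a1, the proton-coupled exporter of organic cations, was 180.5 and 186 CPM against 119 and 169 CPM (0.35 ± 0.17, edgeR adjusted p = 0.204).

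The P-glycoprotein genes Abcb1a and Abcb1b lie side by side on chromosome 5 and are low in liver. Abcb1a had 186 and 267 counts in DBA/2J and 116 and 135 in C57BL/6J, whereas Abcb1b had 104 and 87 in DBA/2J and 125 and 170 in C57BL/6J. Neither overlapped between strains, the log2 values were 0.77 ± 0.21 and -0.68 ± 0.27, and neither was called (edgeR adjusted p = 0.0602 and 0.139). Without C57BL/6J replicate 1, Abcb1b was called (-0.88, edgeR adjusted p = 0.0477). The ratio of Abcb1a to Abcb1b per kilobase was 2.61 and 4.47 in DBA/2J and 1.35 and 1.16 in C57BL/6J. Their transcripts are 87.2% identical, and 7.49% of the stretches of 100 bases of Abcb1a occurred unchanged in Abcb1b. Exons of Abcb1a and Abcb1b also overlap antisense genes, over 936 and 384 bases, where reads may have gone uncounted.

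Basolateral efflux genes had 0 calls among 4 (edgeR), with 1 at an unadjusted p below 0.05, and 0 calls in DESeq2. Of all 15647 tested genes, edgeR called 18.2%, and 5540 had an unadjusted p below 0.05. With 4 genes, these counts cannot be set apart from those shares. Abcc3, which returns glucuronides to blood, was 364 and 330.2 CPM in DBA/2J and 327 and 384 CPM in C57BL/6J (log2 -0.03, 95% interval -0.32 to 0.25). Abcc6, which is needed for release of ATP from hepatocytes and so for limiting soft tissue calcification, was 289 and 274 CPM against 286 and 314 CPM (log2 -0.09, 95% interval -0.32 to 0.13). Both overlapped between the strains. Counts summed over the exons of a gene do not tell its splice forms apart. Abcc4, an exporter of bile acids and cyclic nucleotides, had 67 and 78 counts in DBA/2J and 142 and 117 in C57BL/6J. It was lower in both DBA/2J libraries (-0.91 ± 0.24, edgeR adjusted p = 0.0541), and was called when genes under 30 counts in 2 libraries were left out. Abcc1 had 63 and 117 counts against 134 and 54, with wide overlap.

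Set side by side, the uptake genes had 4 calls higher and 2 lower of 17 (35.3%, or 31.2% without Slc28a1), and the Abc efflux genes 1 higher and 1 lower of 12 (16.7%), where 18.2% of all tested genes were called. The efflux share lay close to that of all genes, and the difference between the shares was not tested. The median log2 difference was 0.12 over the uptake genes and -0.12 over the efflux genes, against 0.01 over all tested genes. The difference between these medians was 0.24, and it ranged from 0.19 to 0.31 with each library left out. Summed uptake counts were 4183 and 4063 CPM in DBA/2J against 3142 and 3517 CPM in C57BL/6J, which did not overlap. Summed efflux counts were 2639 and 2475 CPM against 2505 and 2936 CPM, which did. The ratio of uptake to efflux was 1.59 and 1.64 in DBA/2J and 1.25 and 1.20 in C57BL/6J. No test was made of these sums, since the members were chosen with earlier results of these data known. A few genes set them: Slco1b2, Slco1a1, Slc10a1 and Slc22a30 made up 72.4% to 76.3% of the uptake sum, and Abcb11, Abcc2, Abcc3, Abcc6 and Abcb4 86.9% to 89.8% of the efflux sum. Slco1b2, Slc22a30 and Slco1a1 were higher in DBA/2J by 292, 198 and 188 CPM. For Slc22a30 a change in mRNA level and a change in read placement cannot be told apart, which holds for its part of the sum too. Slco2a1, known from endothelial cells, was higher by 67.0 CPM. Abcc2 was the efflux gene with the largest gap, at 537 ± 25.3 against 734 ± 96.1 CPM (SD, n = 2 each).

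**Figure D4:**
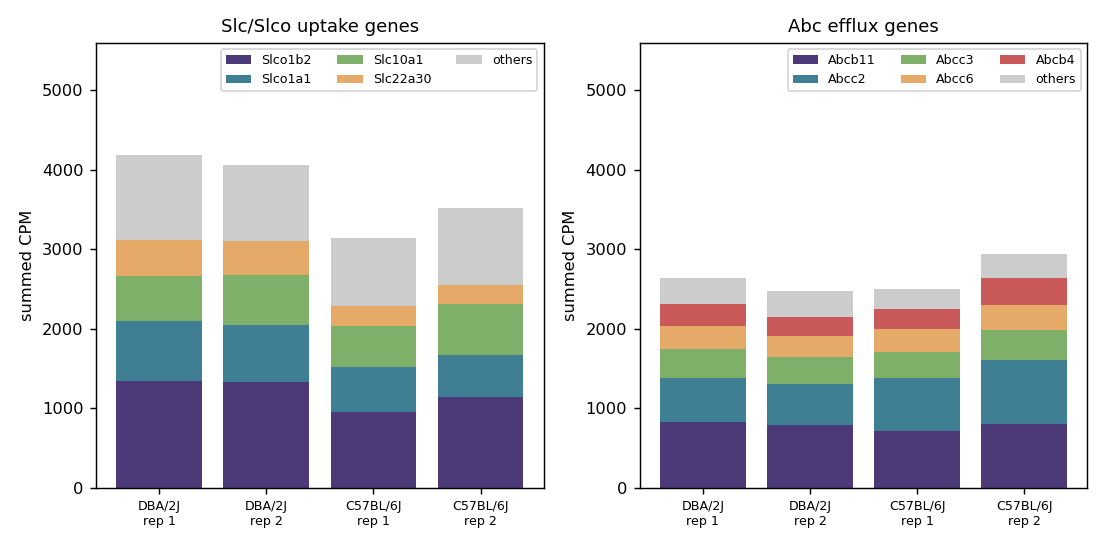
Summed CPM of the 17 uptake genes (left) and the 12 Abc efflux genes (right) in each of the 4 libraries, with the most abundant genes as coloured segments. The uptake bars of both DBA/2J libraries, 4183 and 4063, exceed those of C57BL/6J, whereas the efflux bars overlap.

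Other genes of these families gave a setting for the members. Called were 10% of the tested Slco and Slc22 genes, 20.8% of the Abc genes and 22.2% of the solute carrier and flippase genes. Of all tested genes 18.2% were called, 9.29% higher and 8.87% lower, and the differences between these shares were not tested. Of 27 other Slco and Slc22 genes 10 were tested, and 1 was called, Slc22a29, which was higher but scarce at 0.569 CPM in DBA/2J and 0.112 CPM in C57BL/6J (log2 2.33); it passed the filter on low counts through DBA/2J alone. Of 24 tested further Abc genes, 4 were higher and 1 lower. Abca3, a phospholipid transporter gene, had the lowest adjusted p, with means of 429 CPM in DBA/2J and 72.5 CPM in C57BL/6J (log2 2.56 ± 0.12, edgeR adjusted p = 4.41e-04), and was called with any library left out. Abcb10, Abca5 and Abca6 stood at 0.53, 0.77 and 0.64. Of 18 tested other solute carrier and flippase genes 4 were higher and 0 lower: Atp8b5 (2.93), Slc13a2 (1.68), Atp8b4 (1.13) and the citrate carrier gene Slc13a5 (1.78). Slc51b, the partner of Slc51a, stood at 0.0542 to 0.401 CPM.

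Of 28 genes for transcription factors and scaffold proteins known to govern these transporters or their membranes, 2 were higher and 2 lower in DBA/2J, 14.3% called, which is below the 18.2% of all tested genes. Nr1i2, the pregnane X receptor gene, had 70.6 and 70.0 CPM in DBA/2J and 91.9 and 102 CPM in C57BL/6J (-0.46 ± 0.09, edgeR adjusted p = 0.0203). Nr1h3, the liver X receptor alpha gene, was lower by -0.33 ± 0.08 (edgeR adjusted p = 0.0356). Stat5b, a growth hormone signalling factor gene, was higher by 0.40, and Myo5b, a motor of vesicle delivery to the canalicular membrane, by 0.72. The bile acid receptor gene Nr1h4 was not called (-0.15 ± 0.11, edgeR adjusted p = 0.375). Whether any of these moved with the transporter differences within a strain was not tested, and each of the 4 calls was lost without either DBA/2J library.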

How the data were processed

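The series measured poly(A) RNA of mouse liver, by single-end sequencing per the labels. The authors deposited whole-number read counts per gene symbol, which per the file headers came from featureCounts 2.0.1 and the exon annotation of Ensembl 88 (GRCm38), without a strand option. The command in those headers carries the paired-end option -p, which goes against the labels, so whether reads or fragments were counted is not settled here. STAR 2.4.0g1 and featureCounts 1.5.2 appear in the submitters' processing notes. The counts entered the quasi-likelihood F test of edgeR 4.0.16 (R 4.3.3; legacy=FALSE), with TMM scaling, filterByExpr (minimum count 10), strain as the sole term and Benjamini-Hochberg adjustment over 15647 genes. The F statistic gave the standard errors, and these with the fit's degrees of freedom gave the intervals. Alternatives were DESeq2 1.42.0, other scalings, filters, a replicate block and leaving out each library. The fit was tested on simulated data, where calls were false more often than the threshold allows when spread varied strongly between genes. Copies were sought with blastn 2.17.0 in GENCODE transcripts. Groups came from sample titles. Named genes were all members and up to 4 called genes, lowest adjusted p first, of each family and regulator list, with marker lists given as counts and sums; genes named beyond this rule, among them Saa1, Slc51b and Nr1h4, were chosen with their values seen. Members and lists were chosen with earlier results of these data known.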

Additional observations from a re-analysis of the deposited data

How the results depend on the processing

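No transporter gene that was called in the reported fit or in any of 11 alternative settings changed direction between them. The number of called uptake and efflux genes was less stable. With each library left out, calls ranged from 292 to 4905 over all genes, from 0 to 10 for higher and 1 to 7 for lower transporter genes, from 1 to 8 for uptake and 0 to 5 for efflux genes. With a DBA/2J library left out, the residual spread comes from C57BL/6J alone. The difference between the uptake and efflux medians ranged from 0.19 to 0.31. DESeq2 called 9 higher transporter genes and 4 efflux genes, adding Slco1b2, Slc22a7, Slc22a15, Abcb1a and Abcc2. With no filter on low counts, 1516 genes, 3 higher transporter genes and 0 efflux genes were called (Slc22a23, Abcg5 and Abcg8 lost), with more genes tested. When libraries were scaled by their totals, all-gene calls were 1924 higher and 1024 lower in place of 1454 and 1388, which added Slc22a15 and Atp8b1. Labels give both strains replicate numbers 1 and 2, but nothing ties equal numbers together, and deviations of same-numbered libraries correlated at 0.05. With the replicate block, 3 higher transporter genes were called in place of 5 (2395 genes in all), Slco1a1 and Slc22a23 being lost. With 2 animals per strain, small differences were not detectable.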
